A study of Mus musculus with 24 samples.

Results

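Messenger RNA of the cortex was compared between 8 mice of the genotype labelled 5xFADP522R and 8 mice labelled 5xFAD, all 7.5 months old. These 16 of the 24 libraries in the series were chosen by their titles, which read P522R_HOM_5xFAD or WT_5xFAD, and every gene that passed the filter on low counts is described. The 5xFAD line is a model of amyloid plaque formation, in which transgenes bearing mutations of inherited Alzheimer's disease are driven in neurons by the Thy1 promoter. Both groups carry these transgenes, and the P522R group is in addition homozygous for the P522R variant of Plcg2, so the comparison asks what this variant changes in a plaque-bearing cortex. It holds no mice without plaques. In either genotype 4 titles carry the letter F and 4 the letter M, and this letter entered the fit as a covariate. The labels do not say whether the P522R line stems from 1 founder, nor how the animals were assigned to preparation days.

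Plcg2 encodes phospholipase C-gamma-2, which splits a membrane phosphoinositide into a messenger that releases calcium and a lipid that activates protein kinase C. In the brain it is made mainly by microglia, where it acts below receptors such as TREM2 and Fc receptors through the kinase SYK. The P522R variant is known from human genetics as one associated with a lower risk of Alzheimer's disease. Bc1 is a short noncoding RNA that neurons transcribe with RNA polymerase III and carry into dendrites, and because it holds an internal run of adenines it can be captured together with polyadenylated messenger RNA. The share of bases that are G or C (GC content) is a property of each transcript on which the yield of library preparation can depend.

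The Bc1 RNA is shown because its share of the counts is one of the measures compared. Per GENCODE M21 it spans 168 bases on the plus strand of chromosome 7, at chr7:144914470-144914637 in GRCm38, and has a GC content of 40.5%. Its longest run of A, the 23 bases from position 77 to 99, is in capitals.
Bc1: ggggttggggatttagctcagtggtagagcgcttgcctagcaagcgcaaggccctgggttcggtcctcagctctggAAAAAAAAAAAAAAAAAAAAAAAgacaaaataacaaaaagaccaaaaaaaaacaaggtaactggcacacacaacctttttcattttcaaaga

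Bc1 took a larger share of the counts in P522R. In 5xFAD it took 3.61% to 10.4% of a library's counts with a median of 5.25%, and in P522R 5.32% to 19.8% with a median of 9.08%. The groups overlapped, with 4 of 8 P522R libraries above the highest 5xFAD library. The mean was 10.2 ± 4.55% in P522R and 5.81 ± 2.14% in 5xFAD (SD, n = 8 each), and an exact two-sided permutation test gave p = 0.016, or 0.042 adjusted over 10 library measures. Leaving out any 1 of 11 libraries ended that call (exact permutation, adjusted p between 0.064 and 0.088): replicates 8, 24, 31 or 106 of P522R, or 1177, 1181, 1189, 1190, 1248, 1269 or 1270 of 5xFAD. Without P522R replicate 24, the library at 19.8%, the difference in Bc1 share per library was 2.97 percentage points. It was 5.40 points in F libraries (exact permutation, adjusted p = 0.17) and 3.29 points in M libraries (exact permutation, adjusted p = 0.036).

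Libraries also differed in how their counts depended on GC content. For each library a slope was fitted over 14632 genes, as the change in log2 CPM (counts scaled to the library's size), relative to the mean of the 5xFAD libraries, per 10 percentage points of transcript GC content. The slope ran from -0.20 to 0.19 with a median of -0.03 in 5xFAD and from -0.23 to 0.52 with a median of 0.19 in P522R. Of the P522R libraries 4 lay above and 1 lay below all 5xFAD libraries. The mean slope of 0.21 ± 0.27 in P522R against 0.00 ± 0.14 in 5xFAD did not pass the test (exact permutation, p = 0.067, adjusted p = 0.11). Without P522R replicate 21, the library with the lowest slope, the difference in GC slope per library was 0.28 and passed (exact permutation, adjusted p = 0.023). No other library left out singly gave a pass. Leaving out P522R replicate 8, 106 or 24 gave 0.17, 0.17 or 0.18 (exact permutation, adjusted p = 0.21 each). The difference was 0.35 in F libraries (exact permutation, adjusted p = 0.17) and 0.08 in M libraries (exact permutation, adjusted p = 0.60).

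Steep GC slopes went with high Bc1 shares within P522R. The F libraries of replicates 8, 106 and 24 had slopes of 0.52, 0.51 and 0.44 and Bc1 shares of 12.5%, 10.4% and 19.8%. The M library of replicate 21 had a slope of -0.23 and the lowest Bc1 share of the group, 5.32%. Over the 8 P522R libraries Pearson's r was 0.75 (permutation p = 0.023, adjusted p = 0.055) and Spearman's rho 0.86 (permutation p = 0.011, adjusted p = 0.021), and r was 0.90 without the 2 libraries farthest from the median Bc1 share. Within the 8 5xFAD libraries r was 0.25 (permutation p = 0.57, adjusted p = 0.62) and rho 0.62 (permutation p = 0.12, adjusted p = 0.15), with r = 0.29 without the 2 farthest. A slope on exon length fell with the Bc1 share at r = -0.93 in P522R and -0.82 in 5xFAD (permutation, adjusted p = 0.0020 in both, over 12 tests of 4 relations), with rho = -0.90 and -0.95 (permutation, adjusted p = 0.014 and 0.0068). Without the 2 farthest libraries r was -0.83 and -0.91. Both measures also differed by letter. In 5xFAD the F libraries had length slopes of -0.118 to -0.039 and Bc1 shares of 5.26% to 10.4%. The M libraries there had 0.064 to 0.125 and 3.61% to 5.25%. In P522R the length slopes were -0.193 to -0.059 in F and -0.055 to 0.027 in M libraries. The permutations in this paragraph left the letter out, so these relations do not separate the Bc1 share from the letter.

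**Figure D1:**
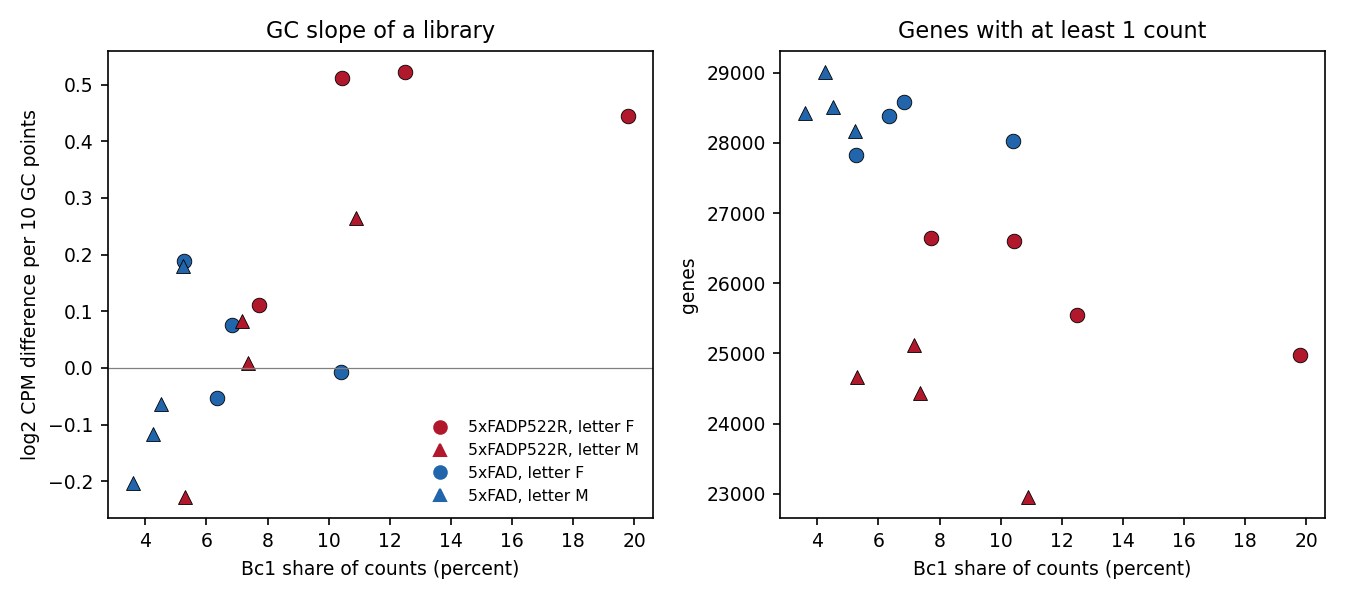
Bc1 share of each library (x axis, percent of counts) against its GC slope (left, log2 CPM difference per 10 percentage points of GC content) and against the number of genes with at least 1 count (right). Each point is 1 library, coloured by genotype and shaped by title letter; the 3 P522R libraries with slopes of 0.44 to 0.52 all hold over 10% Bc1, and all 8 P522R libraries lie below all 5xFAD libraries in genes detected.

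Fewer genes were detected in every P522R library. Between 22958 and 26648 genes had at least 1 count there, with a median of 25046.5, against 27831 to 29012 with a median of 28402 in 5xFAD. The groups did not overlap. The means were 25118 ± 1200 and 28368 ± 366 (exact permutation, p = 0.00016, the smallest that 8 against 8 libraries can give, adjusted p = 0.0016). Total counts overlapped, at 9.47e+07 to 1.061e+08 per library in P522R and 7.92e+07 to 1.152e+08 in 5xFAD. With Bc1 removed and all libraries set to an equal count of 70990622, a measure added after the data were seen, 24893 ± 1127 genes were expected in P522R and 27702 ± 302 in 5xFAD (exact permutation, adjusted p = 0.00047 over 3 added measures). Within P522R the number of genes did not follow the Bc1 share (r = -0.03, permutation p = 0.94, adjusted p = 0.94; rho = 0.10, permutation p = 0.84, adjusted p = 0.84; r = -0.10 without the 2 farthest libraries).

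The genes missing in P522R had low counts in 5xFAD. A count was present in at least 6 of 8 5xFAD and at most 2 of 8 P522R libraries for 867 genes, whose mean count in 5xFAD had a median of 2.625 and reached 13.125, and the reverse held for 7 genes. The 867, of 53647 genes in all, included 161 of 9920 processed pseudogenes, 157 of 21878 protein-coding genes and 82 of 2958 antisense RNAs. They also included 156 of 5610 long intergenic noncoding RNAs (lincRNAs) and 144 of 3214 genes of type TEC, transcribed regions that await experimental checks. Differences between the types were not tested. Summed over the 6334 genes with a mean between 0.001 and 0.01 CPM without Bc1, the level was 21.3 ± 5.23 CPM in P522R and 32.1 ± 3.40 CPM in 5xFAD (SD, n = 8 each), a log2 ratio of -0.59, with all 8 P522R libraries below all 5xFAD libraries. The ratio shrank to -0.23 for genes between 0.01 and 0.1 CPM, to -0.16 between 0.1 and 1 CPM and to -0.07 between 1 and 10 CPM. Genes above 100 CPM lay at 0.02. These classes were defined after the data were seen, and the differences between them were not tested.

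**Figure D2:**
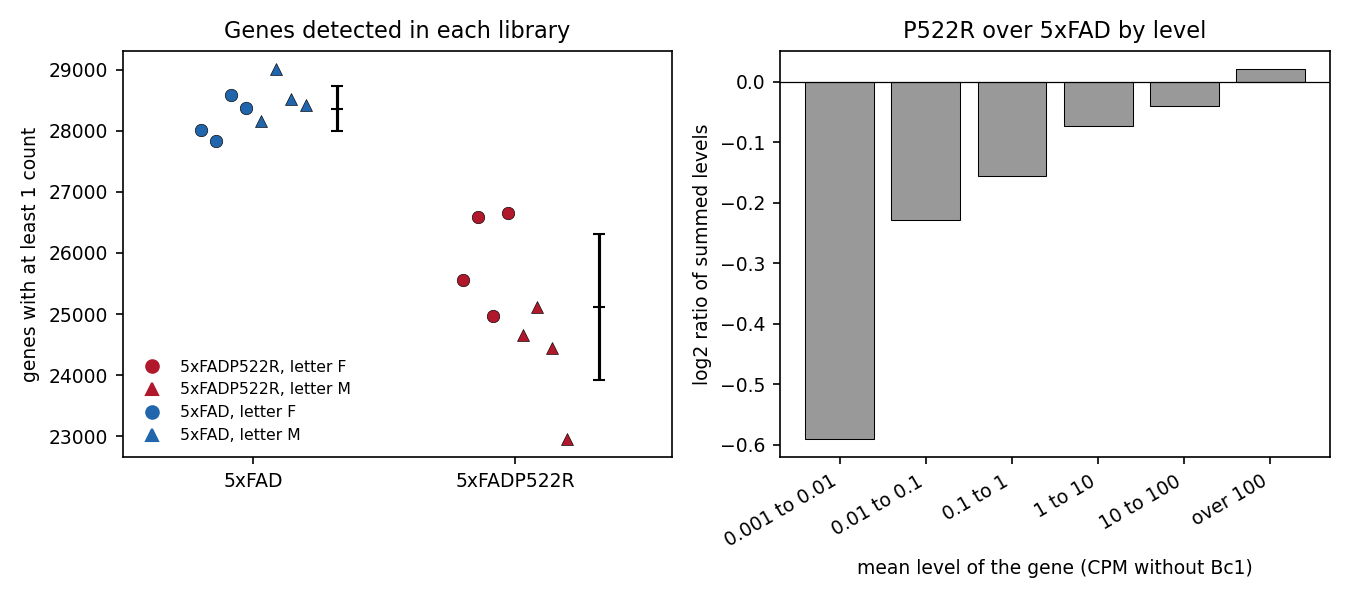
Left, genes with at least 1 count in each library (points, shaped by title letter) with mean and SD of the 8 libraries per genotype beside them; the axis does not start at 0. Right, log2 ratio of the summed level in P522R over that in 5xFAD for genes grouped by their mean level in CPM without Bc1; the ratio is -0.59 in the lowest group and 0.02 in the highest.

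Noncoding genes of several types were seldom called higher in P522R, while their share of counts without Bc1 was lower. Long noncoding RNAs held 0.956 ± 0.0731% of the counts without Bc1 in P522R and 1.26 ± 0.119% in 5xFAD (exact permutation, p = 0.00031, adjusted p = 0.00047 over the 3 added measures). Of 1075 lincRNA genes tested, 18 (1.67%) were higher and 146 (13.6%) lower, of 958 antisense RNAs 24 (2.51%) and 86 (8.98%), of 1089 TEC genes 16 (1.47%) and 140 (12.9%), and of 128 sense intronic RNAs 1 (0.781%) and 20 (15.6%). Over all genes tested the shares were 15.0% higher and 14.8% lower, so calls of lower genes were about as frequent or less frequent in these types and calls of higher genes less frequent, which was not tested. Processed pseudogenes had 47 higher and 42 lower of 1111. Median levels were low, at 0.36 CPM for tested lincRNAs, 0.33 for antisense RNAs, 0.28 for TEC genes and 0.30 for sense intronic RNAs. Processed pseudogenes had a median of 0.23 CPM and protein-coding genes one of 18.25 CPM. How far the shares called go with the level of the genes was not tested. As strand handling is not given, reads of an antisense RNA and of the gene opposite cannot be told apart. Among the 15804 protein-coding genes 3058 were higher and 2574 lower. In a fixed list of abundant noncoding RNAs 6 of 16 tested genes fell and 1, Bc1, rose, with 4 and 1 under the GC and length offsets described below. Meg3, an imprinted nuclear RNA of neurons, was at 1618 to 3007 CPM with a median of 2247 in 5xFAD and at 1097 to 1685 CPM with a median of 1387 in P522R. The ranges overlapped slightly. It fell by 0.74 on the log2 scale (SE 0.09, adjusted p = 2.2e-06 in edgeR), and Miat, another nuclear RNA of neurons, fell by 0.66 (SE 0.10). Snhg11, a host of small nucleolar RNAs, fell by 0.48 (SE 0.10) and was not called in the M libraries, with the Bc1 covariate described below (-0.42, adjusted p = 0.080) or without the 5 libraries above 10% Bc1 (-0.34, adjusted p = 0.093).

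Across all genes, 6344 of 21280 (29.8%) differed between P522R and 5xFAD in edgeR's quasi-likelihood test at an adjusted p below 0.05, of which 3198 (15.0% of the genes tested) were higher and 3146 (14.8%) lower. The letter and the genotype were both in the fit. Without overlap between the 8 and 8 libraries in CPM there were 364 genes higher (1.71%) and 252 lower (1.18%). Most differences were small, with a median absolute log2 value of 0.39 among the called genes and 292 above 1.

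In the fit on all libraries the direction of a call followed GC content. Genes were split into 10 classes of nearly equal size by the GC content of their longest transcript. In the lowest class (27.5% to 41.2% GC) the median log2 difference was -0.14, and 2.87% of the genes were higher and 15.7% lower. In the highest class (57.9% to 75.5% GC) the median was 0.26, and 42.4% were higher and 4.37% lower. The medians rose in every step from the second class to the last. In F libraries alone the medians of the lowest and highest class were -0.22 and 0.46, and in M libraries alone -0.009 and 0.125. Without the 5 libraries above 10% Bc1 they were 0.07 and 0.02, so the trend was not seen in that fit. By exon length, split likewise, the medians were 0.09 in the shortest class and -0.15 in the longest.

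Offsets that remove each library's own dependence on GC content and exon length took out this trend but not the number of calls. With them 6831 genes were called, 3384 higher (15.9%) and 3447 lower (16.2%). The medians of the GC classes then lay between -0.02 and 0.01, and between 15.4% and 26.7% of the genes in a class were higher. Called higher in both fits were 2517 genes (11.8%) and lower in both 2364 (11.1%), and 0 genes were called in opposite directions. Of the calls without offsets 78.7% of the higher and 75.1% of the lower ones were also made with them. The genes called only with offsets numbered 867 higher and 1083 lower.

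**Figure D3:**
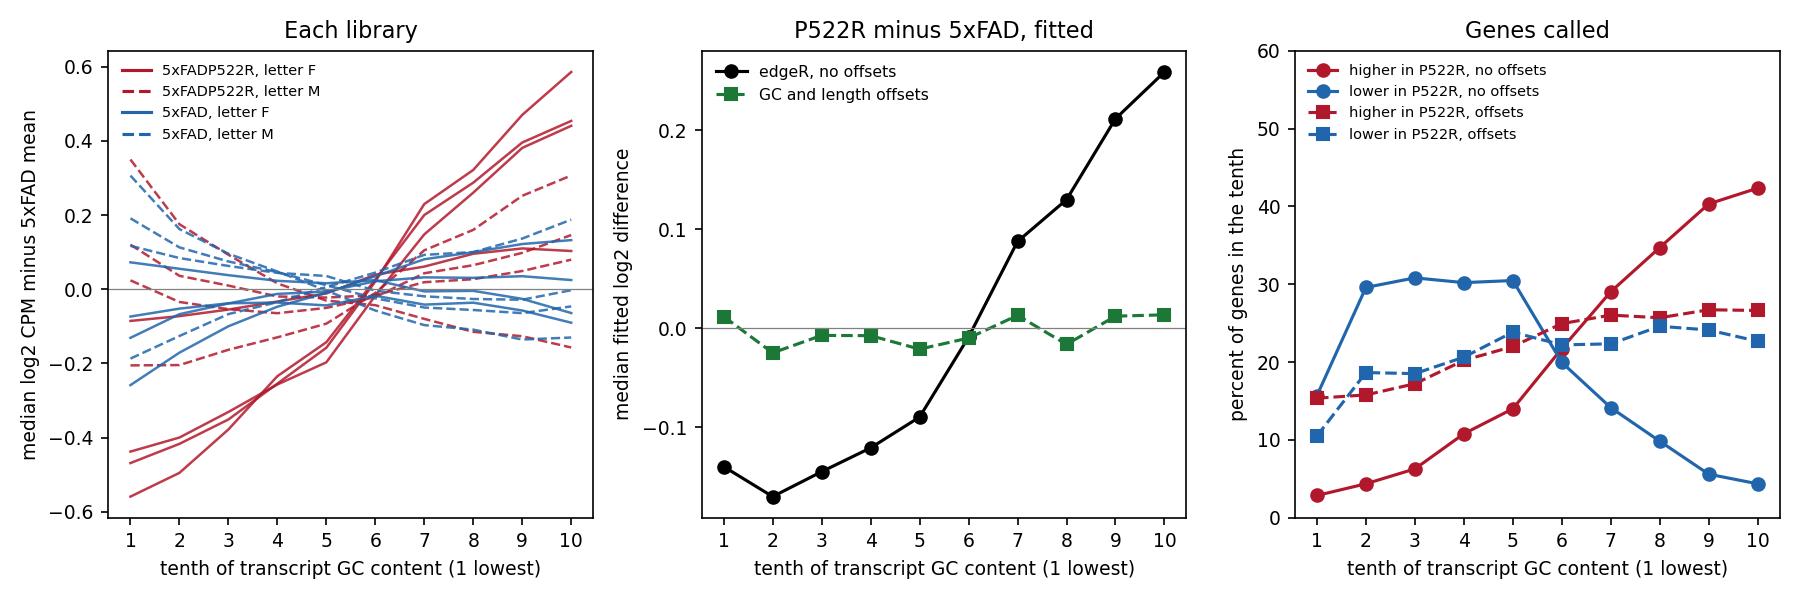
Genes in 10 classes of transcript GC content. Left, the median over genes of log2 CPM minus the 5xFAD mean in each of the 16 libraries (line colour, genotype; solid, letter F; dashed, letter M); middle, the median fitted log2 difference P522R minus 5xFAD, which runs from -0.14 to 0.26 without offsets and stays between -0.02 and 0.01 with them; right, percent of genes called in each direction.

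Fewer genes were called with the Bc1 share in the fit than with the offsets. The 2 adjustments enter the fit in different ways, so these counts do not rank the Bc1 share against GC content. When the log2 of each library's Bc1 share entered the fit, called below the Bc1 covariate, 889 genes (4.18%) passed, 563 higher (2.65%) and 326 lower (1.53%). With this covariate and the offsets together 1265 were higher (5.94%) and 1105 lower (5.19%). Without the 5 libraries above 10% Bc1, 4 of P522R and 1 of 5xFAD, 1269 genes were higher (5.71%) and 1294 lower (5.83%) of 22206 tested. With offsets added there were 2264 (10.2%) and 2188 (9.85%). The libraries left out were P522R replicates 8, 24 and 106 (letter F) and 31 (letter M), and 5xFAD replicate 1180 (letter F). This fit therefore has fewer libraries and no balance of letters in P522R. How many calls were lost for that reason was not tested. A set of 771 genes was called in the same direction in the fits without offsets, with offsets, with the Bc1 covariate and without these 5 libraries, 492 higher (2.31%) and 279 lower (1.31%). Their median GC content was 54.5% for the higher and 48.7% for the lower genes. Because the Bc1 share differs between the genotypes, the covariate also takes up part of the genotype difference, and these cannot be told apart. In the following, a gene is said to hold in all 4 fits where it belongs to this set. Counts of list members given below for each fit stand beside that fit's shares over all genes given here.

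Plcg2 itself was higher in P522R. It lay at 6.08 to 13.2 CPM with a median of 9.32 in 5xFAD and at 10.5 to 31.7 CPM with a median of 18.3 in P522R. All 8 P522R libraries exceeded the 5xFAD mean, and the ranges overlapped. In log2 terms this was 1.04 (SE 0.14, adjusted p = 5.6e-06 in edgeR), 0.90 with offsets, 0.88 with the Bc1 covariate and 0.74 without the high-Bc1 libraries, and the call held in all 4 fits. These reads do not show which allele they came from. Of 27 other genes tested within 2 Mb of Plcg2 on chromosome 8, 12 were higher (44.4%) and 1 lower (3.70%), with 10 and 2 under offsets. Over all genes 15.0% were higher and 14.8% lower, and with offsets 15.9% and 16.2%. Within 5 Mb 29 of 91 were higher and 6 lower, with 22 and 12 under offsets. The median GC content was 52.0% within 2 Mb, against 49.2% over all genes, and the difference from all genes was not tested. Thy1, whose promoter drives the transgenes, and App were not called, at 0.06 (adjusted p = 0.70) and -0.004 (adjusted p = 0.97).

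Of 14 genes of the phospholipase C family, Plcg2 included, 4 rose (28.6%) and 0 fell, against 15.0% and 14.8% over all genes. With offsets 6 rose and 2 fell. Both with the Bc1 covariate and without the high-Bc1 libraries 2 rose and 0 fell. Plcd4, a delta-type enzyme, was at 14.1 to 22.5 CPM in 5xFAD (median 18.4) and at 22.5 to 33.0 CPM in P522R (median 24.7), ranges that met without overlapping, and rose by 0.56 (SE 0.07, adjusted p = 3.2e-06 in edgeR) in all 4 fits. Plcb3, a beta-type enzyme activated by G proteins, rose by 0.44 (SE 0.12), but did not pass with the Bc1 covariate (0.37, adjusted p = 0.23), without the high-Bc1 libraries (0.19, adjusted p = 0.35) or in the M libraries. In bulk tissue fewer or more cells of a type and less or more RNA per cell cannot be told apart, here or below.

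Among 18 receptors that signal to Plcg2, 2 rose and 2 fell (11.1% each, below the shares over all genes). Under the Bc1 covariate 0 were called and without the high-Bc1 libraries 0, against 4.18% and 11.5% over all genes. Cd33, an inhibitory receptor of microglia, lay at 11.2 to 15.5 CPM in 5xFAD (median 13.1) and at 7.68 to 12.9 CPM in P522R (median 9.39). It fell by 0.41 (SE 0.11, adjusted p = 0.0045 in edgeR), and the value was -0.19 both with the Bc1 covariate (adjusted p = 0.47) and without the high-Bc1 libraries (adjusted p = 0.29). Of 24 kinases, adaptors and phosphatases 5 rose and 4 fell (20.8% and 16.7%, against 15.0% and 14.8% over all genes). Under the Bc1 covariate 0 of these were called, and 1 in each direction without the high-Bc1 libraries. Inpp5d, a lipid phosphatase that opposes PI3 kinase signals, rose by 0.65 (SE 0.13) but was not called with the Bc1 covariate (0.56, adjusted p = 0.10), nor without the high-Bc1 libraries (0.40, adjusted p = 0.10). The kinase Lyn fell by 0.31 (SE 0.07) and the adaptor Grb2 by 0.20 (SE 0.05), and neither was called in F libraries alone, with the Bc1 covariate or without the high-Bc1 libraries.

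Targets of the pathway moved both ways. Of 23 genes 6 rose and 7 fell, with 3 and 1 both under the Bc1 covariate and without the high-Bc1 libraries. Nfatc1, a transcription factor switched on by calcium, was at 5.79 to 8.15 CPM in 5xFAD (median 6.54) and at 8.37 to 11.3 CPM in P522R (median 9.88), without overlap, and rose by 0.57 (SE 0.10, adjusted p = 7.8e-05 in edgeR). Its relative Nfatc2 rose by 0.47 (SE 0.09) and Rela, a subunit of NF-kappa-B, by 0.58 (SE 0.09), both without overlap. These 3 genes held in all 4 fits. Orai1, the pore of store-operated calcium entry, rose by 0.72 (SE 0.13), and was not called with the Bc1 covariate (0.51, adjusted p = 0.098) or without the high-Bc1 libraries (0.42, adjusted p = 0.052). Members chosen after their values were seen were on the falling side, the calcium release channel Itpr1 at -0.39 and the protein kinases C Prkca and Prkcb at -0.34 and -0.29, none of them called with the Bc1 covariate. The 6 risen targets had a median GC content of 54.5% and the 7 fallen ones 46.7%.

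Of 30 tested genes of a glucocorticoid response list 20 rose and 1 fell, the same counts as with offsets, and the list's median log2 difference was 0.48 against -0.04 over all genes. Without the high-Bc1 libraries 16 rose and 1 fell, and with the Bc1 covariate 8 rose and 1 fell. Plin4, a coat protein of lipid droplets, lay at 1.37 to 4.43 CPM in 5xFAD (median 2.1) and at 6.02 to 18.7 CPM in P522R (median 12.3). The ranges did not overlap, and the difference of 2.27 (SE 0.30, adjusted p = 5.4e-06 in edgeR) was 2.13 with offsets and 2.16 with the Bc1 covariate.

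Hif3a, a member of the hypoxia-inducible factor family, rose from 2.43 to 3.99 CPM (median 3.03) in 5xFAD to 4.49 to 10.4 CPM (median 8.35) in P522R, again without overlap, by 1.33 (SE 0.19). Mt2, a metallothionein that binds zinc and copper, was at 43.4 to 69.5 CPM (median 54.3) in 5xFAD and 78.5 to 158 CPM (median 108) in P522R. It rose by 1.04 (SE 0.10, adjusted p = 1.3e-07 in edgeR), and its neighbour Mt1 by 0.69 (SE 0.09). Plin4, Hif3a, Mt1 and Mt2 held in all 4 fits and in F and in M libraries alone, and no call of theirs was lost with any 1 library left out. Fmo2, a flavin monooxygenase outside the list, rose by 1.51 (SE 0.24), from a median of 1.72 to 4.76 CPM, also in all 4 fits.

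Promoters of this list were searched for the palindromic glucocorticoid response element, the half-sites GNACA and TGTNC separated by any 3 bases, on both strands, in the 250 bases before each gene's start (RefSeq, GRCm38.p6). It was present in 0.44% of 27025 genes. Of the 24 listed genes with a promoter sequence 2 held it, Mt1 and Sgk1, the latter chosen after its values were seen. The Mt1 stretch, at chr8:94178971-94179031 on the plus strand, is shown because Mt1 is one of the risen genes. The match in capitals lies 94 to 82 bases before the start.
Mt1: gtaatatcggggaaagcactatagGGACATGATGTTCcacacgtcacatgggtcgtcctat
A match is a description of the letters, and binding was not measured.

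Of 24 heat shock genes tested 11 rose and 1 fell, with 12 and 0 under offsets, 5 and 0 with the Bc1 covariate and 9 and 0 without the high-Bc1 libraries. Hspb1, a small heat shock protein, was at 2.08 to 3.12 CPM (median 2.37) in 5xFAD and 4.52 to 9.70 CPM (median 6.55) in P522R, and rose by 1.48 (SE 0.19, adjusted p = 3.2e-06 in edgeR). Hspa8, the constitutive cytosolic chaperone, was at 1564 to 2336 CPM (median 1910) in 5xFAD and 2414 to 3234 CPM (median 3070) in P522R. It rose by 0.64 (SE 0.09), and by 0.76 with offsets. The small heat shock protein Hspb6 and the cochaperone Bag3 rose by 1.02 (SE 0.10) and 0.82 (SE 0.11). All of these 4 separated the groups without overlap and held in all 4 fits.

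Genes of the circadian clock moved in both directions. Of 21 tested 8 rose and 6 fell, with 9 and 6 under offsets and 3 and 0 without the high-Bc1 libraries. Per1, a repressor of the loop, was at 38 to 94.5 CPM (median 73.5) in 5xFAD and at 96.7 to 184 CPM (median 122) in P522R, with no overlap, and rose by 0.87 (SE 0.15, adjusted p = 8.5e-05 in edgeR). The repressor Nr1d1 rose by 0.88 (SE 0.16), the output factor Dbp by 0.69 (SE 0.13) and Nfil3 by 0.54 (SE 0.11), and Dbp was not called without the high-Bc1 libraries (0.41, adjusted p = 0.076). The activators Clock, Arntl and Npas2, named after their values were seen, fell by 0.38, 0.34 and 0.27, and none of them was called with the Bc1 covariate or without the high-Bc1 libraries. Risen clock genes had a median GC content of 55.1% and fallen ones 43.4%. With the Bc1 covariate 1 of 21 was called, higher, and the values of Per1, Nr1d1, Dbp and Nfil3 were 0.69, 0.70, 0.51 and 0.31 (adjusted p = 0.057, 0.082, 0.11 and 0.23). The time of day of tissue collection is not given in the labels, and its part was not tested.

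The E-box CACGTG, through which clock activators bind, was found in 6.86% of 27025 genes in the 250 bases before the start, and in 5 of 18 clock genes with a promoter sequence. These were Per1, Cry1, Tef, Bhlhe41 and Ciart, of which all but Per1 were named after their values were seen, and 3 of the 7 risen clock genes with a sequence were among them. The Per1 stretch lies at chr11:69098759-69098812 on the plus strand (RefSeq, GRCm38.p6), with the E-box in capitals 166 to 161 bases before the start.
Per1: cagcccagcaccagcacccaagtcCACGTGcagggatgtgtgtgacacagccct

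**Figure D4:**
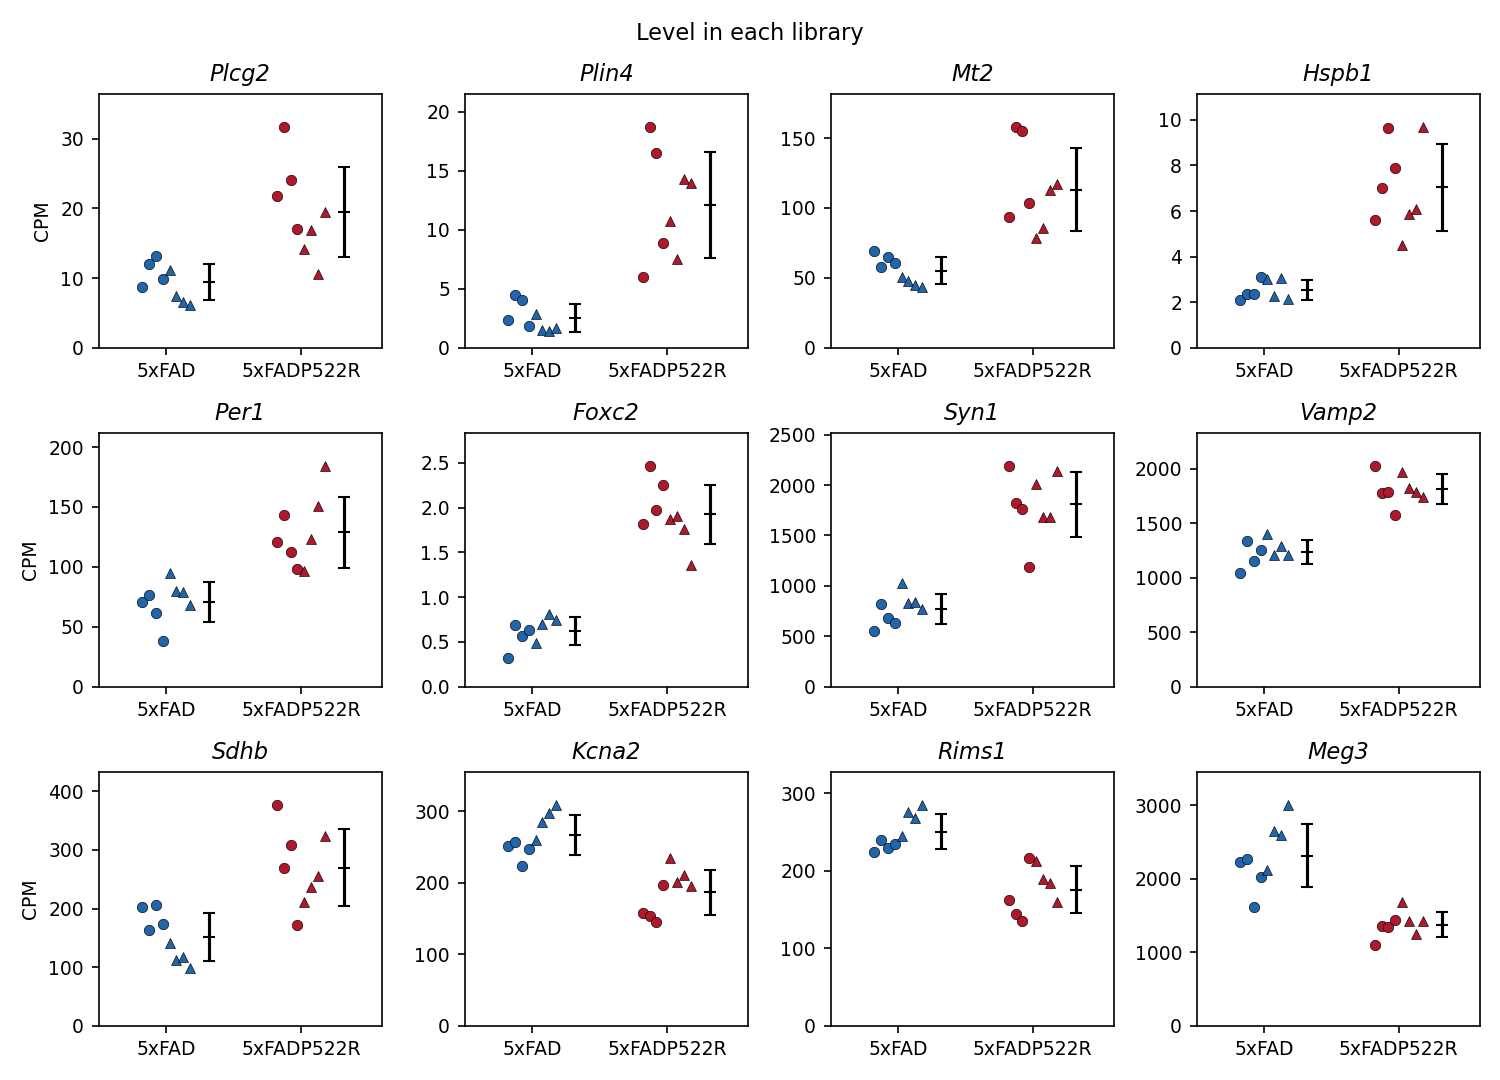
Level of 12 genes in each library in CPM (points; circles, letter F; triangles, letter M), with mean and SD of the 8 libraries per genotype beside them; every axis starts at 0. Plin4, Mt2, Hspb1, Per1, Foxc2, Syn1, Vamp2 and Rims1 separate the 8 P522R from the 8 5xFAD libraries without overlap.

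Of 19 meninges and fibroblast genes 15 rose and 0 fell, with 13 and 0 under offsets, 13 and 0 with the Bc1 covariate and 12 and 0 without the high-Bc1 libraries. Their summed level was 181 to 243 CPM in 5xFAD and 298 to 390 CPM in P522R, without overlap. Foxc2, a transcription factor of mesenchyme, was at 0.318 to 0.812 CPM (median 0.662) in 5xFAD and at 1.36 to 2.47 CPM (median 1.88) in P522R, and rose by 1.63 (SE 0.16, adjusted p = 1.4e-07 in edgeR). Fbln1, a matrix glycoprotein, rose by 1.07 (SE 0.13) and Mgp, an inhibitor of calcification, by 0.73 (SE 0.10). These 3 held in all 4 fits, as did 10 of the 19 genes. How much meninges each cortex sample carried was not tested.

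Of 16 mural cell genes 10 rose and 0 fell, with 4 and 1 without the high-Bc1 libraries and 3 and 0 with the Bc1 covariate, among them the peptidase Anpep by 0.91 (SE 0.13) and the adhesive glycoprotein Vtn by 0.72 (SE 0.13). Anpep held in all 4 fits, and Vtn was not called with the Bc1 covariate (0.56, adjusted p = 0.083) or without the high-Bc1 libraries (0.38, adjusted p = 0.070). Lmod1, an actin-binding protein of smooth muscle outside these lists, rose by 1.25 (SE 0.17) without overlap, in all 4 fits. Of 13 macrophage genes of the brain's borders 6 rose and 0 fell, with 2 and 0 without the high-Bc1 libraries and 1 and 0 with the Bc1 covariate. Lyve1, a hyaluronan receptor, was at 0.415 to 0.956 CPM (median 0.665) in 5xFAD and at 1.04 to 1.63 CPM (median 1.26) in P522R, and rose by 0.99 (SE 0.18, adjusted p = 0.00019 in edgeR). Cd163, a scavenger receptor, rose by 0.79 (SE 0.18) without overlap, but was not called with the Bc1 covariate (0.53, adjusted p = 0.27) or without the high-Bc1 libraries (0.46, adjusted p = 0.15).

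In the lists of other cell types most genes were not called. Of 23 endothelial genes 8 rose and 1 fell, with 2 and 3 without the high-Bc1 libraries, and the summed level ranges of 659 to 1027 CPM in 5xFAD and 848 to 1232 CPM in P522R overlapped. Red cell genes were called in 0 of 5, neutrophil genes in 0 of 2 tested of 13 listed and lymphocyte genes in 2 of 12, both higher. Markers of excitatory layers of the cortex, the tissue the labels name, were present at 2282 to 3131 CPM in sum in 5xFAD and 2563 to 3374 CPM in P522R, with 4 of 20 higher and 4 lower. Of 14 choroid plexus genes tested 3 were higher (21.4%) and 0 lower, with 1 and 0 under offsets. Their median log2 difference was 0.83, or 0.76 with offsets, and 12 of the 14 lay above 0. In sum these genes overlapped, at 184 to 250 CPM in 5xFAD and 163 to 250 CPM in P522R. Sftpc, a lung surfactant protein, was at 0.785 to 1.24 CPM in 5xFAD and at 0.759 to 20.1 CPM with a median of 1.24 in P522R. Replicates 8 and 106 held 20.1 and 8.85 CPM, and the other P522R libraries at most 2.1 CPM. Its value of 1.82 (SE 0.50, adjusted p = 0.0065 in edgeR) was -0.13 without the high-Bc1 libraries (adjusted p = 0.76). Cbr2, one of the risen border macrophage genes, was highest in the same 2 libraries, at 7.09 and 5.18 CPM.

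Of 20 astrocyte genes 8 rose and 1 fell, with 14 and 2 under offsets, 4 and 1 without the high-Bc1 libraries and 2 and 0 with the Bc1 covariate. Atp1b2, the astrocytic beta subunit of the sodium pump, lay at 451 to 729 CPM (median 578) in 5xFAD and at 891 to 1263 CPM (median 1117) in P522R. It rose by 0.92 (SE 0.09, adjusted p = 1.9e-07 in edgeR) in all 4 fits, with no overlap. Slc1a2, the main glutamate transporter, fell by 0.44 (SE 0.07) and by 0.26 with offsets, and was not called with the Bc1 covariate (-0.26, adjusted p = 0.10). Of 26 genes of reactive astrocytes 12 rose and 1 fell, with 4 and 0 under the Bc1 covariate.

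Of 23 oligodendrocyte genes tested 8 rose and 2 fell, with 4 and 2 without the high-Bc1 libraries and 2 and 1 with the Bc1 covariate. Sox10, the lineage's master regulator, was at 41.1 to 60.3 CPM (median 50.8) in 5xFAD and at 66.8 to 127 CPM (median 105) in P522R, and rose by 0.98 (SE 0.15, adjusted p = 2.3e-05 in edgeR). Mobp, a structural myelin protein, was at 666 to 858 CPM (median 835) in 5xFAD and at 470 to 648 CPM (median 548) in P522R, and fell by 0.53 (SE 0.07). Neither gene's groups overlapped, and both held in all 4 fits, as did the iron carrier Trf at 0.72 (SE 0.11), named after its values were seen. Myrf, which drives myelin genes, rose by 0.72 (SE 0.12) and missed the threshold with the Bc1 covariate (0.61, adjusted p = 0.051).

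Few genes of disease-associated microglia were called, in either direction. Of 34 genes of disease-associated microglia, the state taken up near plaques, 4 rose and 2 fell, both shares below those over all genes. Apoe, a lipid carrier that astrocytes also make, was at 1429 to 2510 CPM (median 2078) in 5xFAD and at 2179 to 3824 CPM (median 2650) in P522R, and rose by 0.50 (SE 0.08, adjusted p = 7.7e-05 in edgeR). With offsets its value was 0.26 (adjusted p = 0.018) and with the Bc1 covariate 0.36 (adjusted p = 0.064). Fabp5, a fatty acid carrier, rose by 0.55 (SE 0.12) and was at 0.22 with the Bc1 covariate (adjusted p = 0.43). Cd63, an endosomal membrane protein, was called at 0.51 (SE 0.10) but not with offsets (0.29, adjusted p = 0.066) or with the Bc1 covariate (0.23, adjusted p = 0.32). With the Bc1 covariate 0 of the 34 genes were called in edgeR, where 4.18% of all genes were called. Without the high-Bc1 libraries 3 rose and 0 fell, against 5.71% and 5.83% over all genes.

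Of 25 homeostatic microglia genes 7 rose and 3 fell, with 3 and 1 without the high-Bc1 libraries and 1 and 0 with the Bc1 covariate. The transcription factor Maf was at 33.7 to 42.4 CPM (median 38.9) in 5xFAD and at 47.4 to 81.3 CPM (median 54.7) in P522R, without overlap, and rose by 0.60 (SE 0.08) in all 4 fits. Of 22 antigen presentation genes 0 rose and 3 fell, with 0 and 7 under offsets and 0 and 8 without the high-Bc1 libraries. H2-T23, a nonclassical class I molecule, fell by 0.37 (SE 0.10) and by 0.54 with offsets, and was not called with the Bc1 covariate (-0.43, adjusted p = 0.074). Reads of H2 genes may be shared with their paralogs. H2-Aa, a class II chain, lay at -0.82 (SE 0.29, adjusted p = 0.035 in edgeR). Its call was lost with offsets (-0.69, adjusted p = 0.071) and when any 1 of 8 libraries was left out (adjusted p between 0.051 and 0.095): replicates 8, 21, 23, 27 or 106 of P522R, or 1181, 1190 or 1270 of 5xFAD. The value was -0.02 in F and -1.60 in M libraries, and the interaction with the letter was not called.

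Of 21 genes of lipid droplets 9 rose and 2 fell, with 4 and 0 without the high-Bc1 libraries. Beside Plin4, the triglyceride lipase Pnpla2 was at 14.1 to 18.6 CPM (median 16.5) in 5xFAD and at 24.1 to 38.8 CPM (median 31.7) in P522R, and rose by 0.90 (SE 0.10, adjusted p = 6.9e-07 in edgeR) in all 4 fits. Lcat, which esterifies cholesterol on lipoproteins, rose by 0.79 (SE 0.09), also without overlap and in all 4 fits. Of 22 cholesterol synthesis genes 4 rose and 5 fell, and 0 and 2 without the high-Bc1 libraries. The sterol carrier Stard4 was at 47.8 to 55.4 CPM (median 51.2) in 5xFAD and 31.7 to 42.1 CPM (median 35) in P522R and fell by 0.53 (SE 0.07), and lanosterol synthase Lss fell by 0.49 (SE 0.08), both in all 4 fits. Tfeb, a regulator of lysosomal genes, rose by 0.77 (SE 0.15) and was not called without the high-Bc1 libraries (0.35, adjusted p = 0.15) or with the Bc1 covariate (0.46, adjusted p = 0.22).

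Nuclear genes of the respiratory chain rose in 30 of 66 and fell in 1, with 32 and 6 under offsets and 10 and 1 without the high-Bc1 libraries. Sdhb, the iron-sulfur subunit of complex II, was at 99 to 206 CPM (median 153) in 5xFAD and at 173 to 377 CPM (median 262) in P522R, and rose by 0.87 (SE 0.13, adjusted p = 1.5e-05 in edgeR). Ndufa7 and Ndufs8, subunits of complex I, rose by 0.85 (SE 0.13) and 0.52 (SE 0.10). None of these 3 was called with the Bc1 covariate, at 0.51 (adjusted p = 0.059), 0.42 (adjusted p = 0.11) and 0.21 (adjusted p = 0.31), where 1 of the 66 genes was called. Of 15 mitochondrially encoded genes 0 were called in edgeR and 3 with offsets, all higher. Cytosolic ribosomal protein genes rose in 21 of 79 and fell in 4, with 12 and 2 without the high-Bc1 libraries. Rpl41 among them was at 1.34 (SE 0.18), which is uncertain, since reads may fall on its near-identical pseudogenes.

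Of 31 ion channel genes of neurons 13 fell and 2 rose, with 17 and 3 under offsets, 10 and 0 without the high-Bc1 libraries and 3 and 0 with the Bc1 covariate. Kcna2, an axonal potassium channel, was at 224 to 309 CPM (median 258) in 5xFAD and at 145 to 234 CPM (median 196) in P522R, the ranges overlapping. It fell by 0.52 (SE 0.07, adjusted p = 4e-06 in edgeR), held in all 4 fits and fell by 0.35 with offsets. Kcnc2, a channel of fast-spiking interneurons, fell by 0.56 (SE 0.10) and was not called in F libraries alone or with the Bc1 covariate (-0.29, adjusted p = 0.13). The 13 fallen channel genes had a median GC content of 45.8%.

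Synaptic genes moved both ways. Of 35 postsynaptic genes 4 rose and 14 fell, the same counts as under offsets, but 1 and 2 without the high-Bc1 libraries and 1 and 0 with the Bc1 covariate. Of 31 presynaptic genes 9 rose and 8 fell, with 2 and 5 without these libraries and 2 and 2 with that covariate. Syn1, which tethers synaptic vesicles, was at 549 to 1029 CPM (median 796) in 5xFAD and at 1182 to 2192 CPM (median 1789) in P522R, and rose by 1.25 (SE 0.12, adjusted p = 7.1e-08 in edgeR). Vamp2, the vesicle's fusion protein, was at 1041 to 1403 CPM (median 1231) and at 1578 to 2027 CPM (median 1787), and rose by 0.55 (SE 0.07). Rims1, a scaffold of the release site, was at 224 to 285 CPM (median 242) in 5xFAD and at 134 to 216 CPM (median 173) in P522R, and fell by 0.51 (SE 0.08). All 3 separated the groups without overlap and held in all 4 fits.

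Erc2, another release-site scaffold, fell by 0.46 (SE 0.06), also in all 4 fits. On the postsynaptic side Shank3, a scaffold of excitatory synapses, was at 69.6 to 120 CPM (median 90.6) in 5xFAD and at 41.6 to 72.7 CPM (median 58.6) in P522R. Its GC content is 62.4%. It fell by 0.61 (SE 0.13) and by 0.81 with offsets, and was not called with the Bc1 covariate (-0.48, adjusted p = 0.14). Dlgap4, a scaffold partner, rose by 0.46 (SE 0.08) in all 4 fits. The related Dlgap1 fell by 0.40 (SE 0.07) and was not called with the Bc1 covariate (-0.23, adjusted p = 0.11).

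Among the other large falls, Tgfbr3l, a gene related to the co-receptor betaglycan, was at 1.05 to 1.72 CPM (median 1.55) in 5xFAD and at 0.288 to 0.897 CPM (median 0.697) in P522R, and fell by 1.204 (SE 0.19, adjusted p = 4.8e-05 in edgeR). Casq2, a calcium store protein, fell by 0.78 (SE 0.14), from a median of 2.28 to 1.28 CPM. Both genes separated the groups and held in all 4 fits. On the rising side Glra1, a glycine receptor subunit, was at 0.603 to 1.29 CPM (median 1.01) in 5xFAD and at 1.53 to 4.20 CPM (median 2.11) in P522R, and rose by 1.30 (SE 0.16) in all 4 fits.

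**Figure D5:**
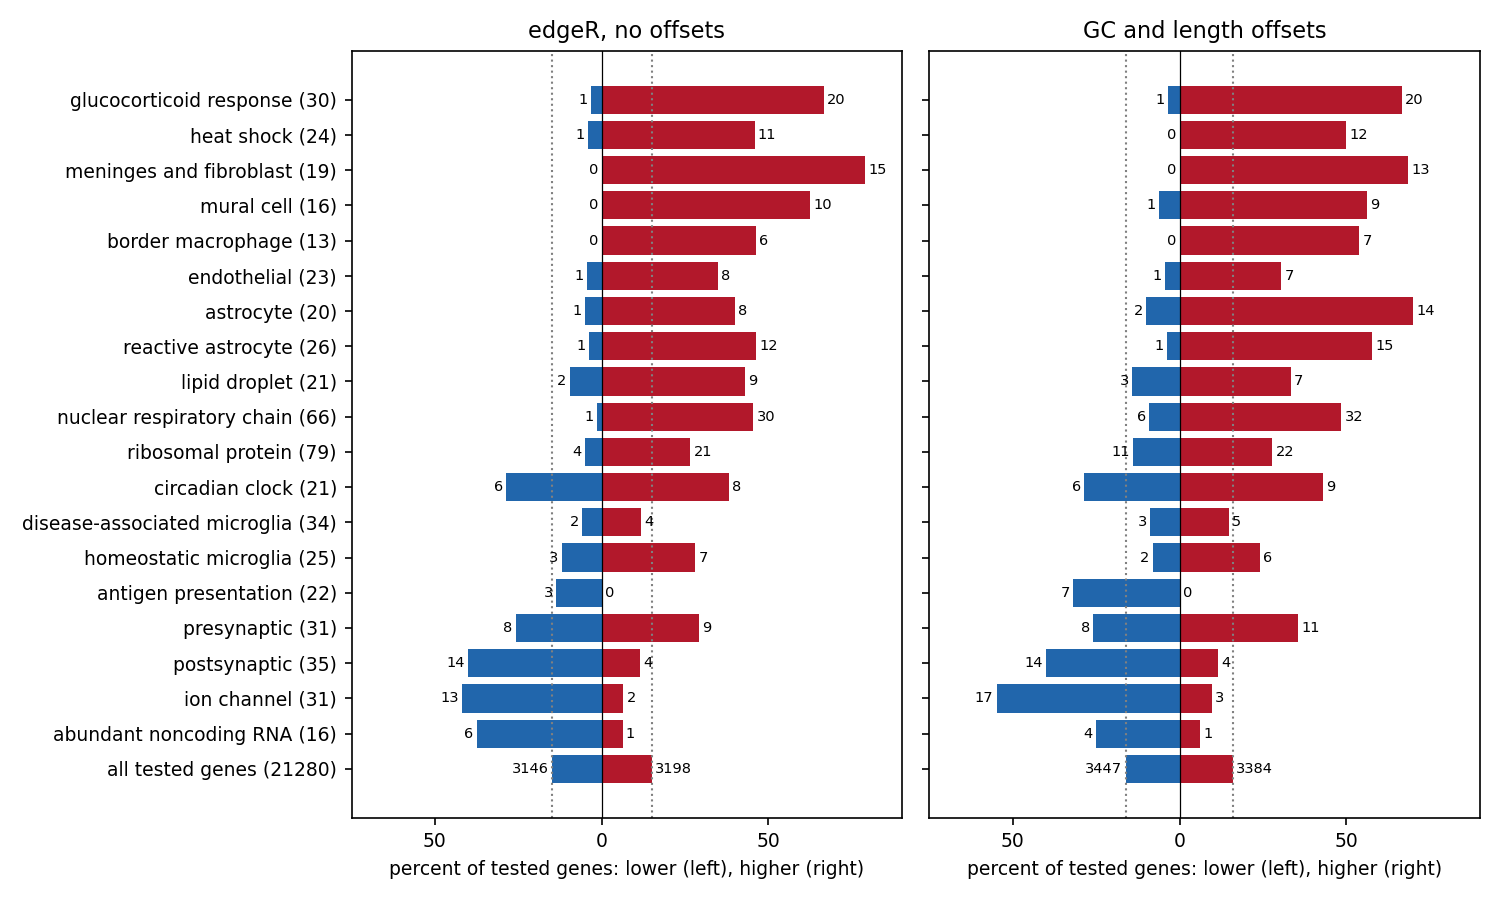
Percent of the tested genes of each list called higher (right of 0) and lower (left of 0) in P522R without offsets (left panel) and with GC and length offsets (right panel); numbers beside the bars are gene counts, numbers in brackets are genes tested, and dotted lines mark the shares over all 21280 genes. Meninges and fibroblast (15 of 19) and glucocorticoid response (20 of 30) genes lie farthest to the right and ion channel genes (13 of 31) farthest to the left without offsets.

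The P522R difference was also compared between the letters. In F libraries alone 2303 genes were higher (10.7%) and 624 lower (2.9%) of 21519 tested, and in M libraries alone 2493 (11.7%) and 2163 (10.2%). With offsets the F libraries gave 1626 higher (7.56%) and 1263 lower (5.87%). The test of the difference itself, the interaction of genotype and letter, called 0 of 21280 genes in edgeR. At an unadjusted p below 0.05 were 2874 (13.5%), a larger share than this threshold alone would give. The interaction called 29 genes with the 16 libraries alone and 25 with offsets.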

How the data were processed

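Messenger RNA was measured by RNA-seq in 24 cortex libraries of 3 genotypes, 8 each, of which 16 are compared here. Per the labels' protocols a chloroform and column extraction was followed by KAPA mRNA HyperPrep library preparation. The deposited values are raw counts per gene. STAR 2.7.2b and featureCounts are named in the submitters' processing notes, and the genome build, the annotation and strand handling are not given in the sources used here. Of 53647 gene IDs 97.1% matched GENCODE M21, which supplied GC content, exon length and gene type. As only 2.8% of matched genes had the same start and end there, coordinates of sequences are those of the reference named beside each.

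Counts were tested in edgeR 4.0.16 (R 4.3.3) with TMM factors, filterByExpr and the quasi-likelihood test, on all 24 libraries with genotype and title letter, so that the third genotype adds to the estimate of spread. A gene was called where its p, adjusted by Benjamini and Hochberg's method, lay below 0.05, whatever its fold, and CPM use the TMM-adjusted library size. SE is the standard error of the log2 difference. Offsets were per-library natural splines (5 degrees of freedom each) of GC content and exon length. Measures per library were tested by exact two-sided permutation over all splits of 16 into 8 and 8. Total counts ran from 7.92e+07 to 1.152e+08 per library. The labels do not say how the animals were housed or collected, so p-values measure the spread between these samples. Of 276 library pairs 0 were identical.

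The comparison, its gene lists and its measures were chosen with earlier results of these data known. Genes are named by a rule: Plcg2, App, Thy1 and Bc1, up to 10 of the largest rises and of the largest falls at a mean of at least 1 CPM, with and without offsets, and from each list at most the 4 members of smallest p. Alternatives were DESeq2 1.42.0, limma 3.58.1 (voom), other scalings and filters, Bc1 or the letter left out or the Bc1 share added, single letters, the 16 libraries alone and each library left out. Fits without the libraries above 10% Bc1, and all combinations with offsets, were added after the data were seen. The scripts were tested on simulated data. Some results are not reported here.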

Additional observations from a re-analysis of the deposited data

Results flagged for a closer look

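Each group of 8 libraries was searched for a highest or lowest library far from the rest by Dixon's criterion, and 8 of 204 groups checked had one, where chance gives about 1 in 20. P522R replicate 24 stood apart from the other 7 P522R libraries with 24.49% of its counts in its 10 most counted genes and 25.51% in single-exon genes. Among the 5xFAD libraries replicate 1180 had the lowest total count, 7.923e+07, and the highest shares of counts in the 10 most counted genes (16.26%), in long noncoding RNAs (11.62%) and in single-exon genes (17.74%). Both libraries had the highest Bc1 share of their group, at 19.8% and 10.4%, and Bc1 is itself a single-exon long noncoding RNA. Kif11, a mitotic kinesin, was lowest in P522R replicate 23 at 0.4158 CPM. Syn1 was lowest in P522R replicate 54 at 1182 CPM, which is still above every 5xFAD library.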

How the results depend on the processing

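The count of 6344 called genes was within 1.5 times under DESeq2 (6901), limma-voom (8125), other scalings, filters, GC and length offsets (6831), the 16 libraries alone (6114), M libraries alone (4656) and each library left out (5383 to 7489). It was 889 with the Bc1 covariate, 2370 with that covariate and offsets, 2563 without the libraries above 10% Bc1, and 2927 in F libraries alone (2889 with offsets). Fewer libraries enter the last 3 fits. The share of calls that were higher was 50.4%, and it was 63.3% with the Bc1 covariate and 78.7% in F libraries. The letter interaction called 0 genes, but 29 with the 16 libraries alone and 25 with offsets. The difference in Bc1 share per library was 5.40 points in F libraries, no longer past the threshold, and 2.97 to 5.03 with each library left out. For GC slope per library the range was 0.171 to 0.278. From the genes that the naming rule allows 92 were picked, of which 90 were called. Of these 90, 87 kept their call with offsets, 70 without the high-Bc1 libraries and 43 with the Bc1 covariate. Values that reversed were log2 P522R minus 5xFAD, Sftpc, without the high-Bc1 libraries (-0.13, and -0.21 with offsets), and, in F libraries with offsets, log2 P522R minus 5xFAD, Cd63 (-0.036) and log2 P522R minus 5xFAD, H2-Aa (0.071); the cause was not tested.

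Animal numbers are not shared between genotypes, but 4 pairs of titles share a prefix. With this prefix as a replicate block 936 genes were called, and 55 of the 90 called genes kept their call. Libraries whose prefix no other library shares add nothing to the contrast in that fit. Deviations from the genotype and letter means correlated at -0.0451, -0.182, 0.353 and 0.286 in the 4 pairs. So few values of both signs do not decide whether the prefix pairs the samples, and it was not used for pairing in the other fits.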
